A study of Mus musculus with 6 samples.

Results

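The immediate early transcription factor genes of the EGR, NR4A and AP-1 families were described here as 10 genes picked by name: *Egr1*, *Egr2*, *Egr3*, *Nr4a1*, *Nr4a3*, *Fos*, *Fosb*, *Jun*, *Junb* and *Jund*. All 10 were among the 27179 genes of the count table, and 8 of them were among the 11005 genes that passed the limit on low expression. *Nr4a3* and *Fosb* stayed below that limit. RNA-seq had been run on germinal center (GC) B cells of the spleen in 6 libraries, with a WT and an *Il21r*-/- library for day 7, for day 10 and for day 14 after immunization. Both genotypes were on a C57BL/6 background, and both had received the hapten NP coupled to the carrier protein KLH, in alum. The sort took B220+ cells that bound NP and carried IgG1, and left out cells with CD38, CD138, IgM, IgD or Gr1. *Il21r* encodes the receptor for IL-21, a cytokine that follicular helper T cells give to B cells. The labels speak only of WT and *Il21r*-/- mice, while the study's methods state for nearly all experiments that irradiated congenic mice had received bone marrow of 1 genotype. T cells and B cells grown from *Il21r*-/- marrow both lack the receptor, whereas the cells of such a host that do not come from marrow keep it. The sources differ on the number of mice behind a library, since the design text speaks of an independent mouse for each sample while the methods count more mice than libraries and a description of the day 7 sort names several mice of each genotype, so p-values measure the spread between these libraries. The age and sex of the mice behind each library were not given in the sources used here.

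Immediate early genes are transcribed within minutes of a signal, without new protein synthesis, and their messages decay quickly. In B cells the antigen receptor raises them through calcium and the RAS and ERK pathway, and CD40 adds to this. EGR proteins are zinc finger factors that bind GC-rich sites. NR4A proteins are orphan nuclear receptors. FOS and JUN proteins pair through leucine zippers to form AP-1. *Egr1* and *Nr4a1* are widely used as readouts of recent antigen receptor signaling in lymphocytes, and in the GC such signals are tied to the light zone, where B cells take up antigen and meet T cells.

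Promoters are shown to make visible which short signal-responsive motifs these genes carry near their starts. RefSeq promoter entries of GRCm38.p6 were found for 8 of the 10 members. *Egr1* and *Egr3* had no entry and were not searched. The 250 bases before each start were searched on both strands for the CArG box bound by serum response factor, the full cyclic AMP response element TGACGTCA and its core TGACG, the AP-1 site TGANTCA with C or G as N, the EGR site GCGNGGGCG, the STAT site TTCNNNGAA and the NR4A site AAAGGTCA. The core lies within the full element, and it was added after the promoters had been read. Capitals mark matches, and on the other strand TGACG reads CGTCA. The promoter of *Fos* (chr12:85473640-85473889, + strand) held 2 cores. That of *Nr4a1* (chr15:101266596-101266845, + strand) held 4 cores and 1 EGR site. The stretch before start 3 of the 5 listed *Egr2* starts (chr10:67537789-67537818, + strand) held a CArG box and a core. The overlapping windows of starts 4 and 5 held the same box and core, and the window of start 2 held another CArG box. The stretch before the *Fosb* start (chr7:19310082-19310111, - strand) held a core and an EGR site.
Fos: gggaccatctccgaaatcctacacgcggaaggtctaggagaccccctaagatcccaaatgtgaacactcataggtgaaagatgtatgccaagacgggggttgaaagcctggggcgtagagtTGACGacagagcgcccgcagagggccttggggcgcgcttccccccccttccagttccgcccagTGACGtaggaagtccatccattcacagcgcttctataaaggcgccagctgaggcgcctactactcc
Nr4a1: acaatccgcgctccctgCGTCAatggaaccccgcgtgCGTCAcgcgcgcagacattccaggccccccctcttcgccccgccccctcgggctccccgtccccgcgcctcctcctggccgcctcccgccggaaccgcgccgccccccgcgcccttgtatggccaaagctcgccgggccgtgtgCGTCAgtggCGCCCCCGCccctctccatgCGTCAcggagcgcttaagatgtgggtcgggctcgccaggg
Egr2: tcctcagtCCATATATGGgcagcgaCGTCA
Fosb: tgcgggTGACGcaagcGCGGGGGCGggtcc
Of 32851 promoter windows of the same length, 17.8% held the core TGACG at least 1 time and 0.137% held it at least 4 times. *Nr4a1* and *Nr4a3* each held 4. A CArG box stood in 1.47% of all windows and, of the 8 members searched, before *Egr2*. The EGR site stood in 4.70% of windows and, of the 8 members searched, before *Nr4a1* and *Fosb*. The full cyclic AMP response element (1.55% of windows), the AP-1 site (4.46%), the STAT site (7.02%) and the NR4A site (1.34%) were matched in none of the 8 members' windows. For every motif, the CArG box included, a missing match says only that those letters are not within these 250 bases. *Junb* held 1 core, and *Jun* and *Jund* held none of the motifs.

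The libraries held 21353438 to 27435124 reads on genes. *Il21r*, the targeted gene, stood at 346, 263 and 247 CPM (reads per 1000000 of the library) in WT on days 7, 10 and 14 and at 106, 128 and 113 CPM in *Il21r*-/-. The log2 fold change was -1.29 (SE 0.13, edgeR adjusted p = 0.0014). Reads assigned to *Il21r* remained in the *Il21r*-/- libraries, and counts per gene do not show where in the gene they lie. The 10 defining markers of GC B cells were all detected. Of 9 T cell markers, 8 stayed at or below 1 CPM in every library, and *Lck*, which these B cells also transcribe, stood at 80.8 to 121 CPM.

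Measured per length, as CPM per kilobase of exon (RPKM), the members ranged widely in these cells. *Jund*, the JUN protein found in resting cells, was highest with a mean of 63.6 RPKM over the 6 libraries (range 48.4 to 69.3), and *Junb*, a JUN protein that can damp the activity of JUN, followed at 41.6 (36.7 to 48.8). *Jund* stood above *Junb* in 6 of 6 libraries, although their ranges touched. *Egr1* came next at 12.5 RPKM (10.4 to 16.3), clear of the ranges of its neighbors.
*Fos* (3.67 RPKM), *Egr3* (2.64) and *Egr2* (2.34) had overlapping ranges, and each stood above the next in 4 of 6 libraries, so their order did not exceed the spread. *Nr4a1* stood at 1.12 RPKM. *Jun* (0.328), *Fosb* (0.147) and *Nr4a3* (0.0651) were near the floor of detection. The AP-1 messages in these GC B cells were therefore mostly *Jund* and *Junb*: per length, *Jund* gave 53.4 to 63.3% and *Junb* 34.3 to 42.6% of the summed FOS and JUN genes in a library, while *Fos* gave 1.90 to 5.01%. *Egr1* gave 61.8 to 79.8% of the EGR genes. *Nr4a1* gave 89.1 to 96.8% of the NR4A genes and *Fos* 94.4 to 96.7% of the FOS genes.

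**Figure D1:**
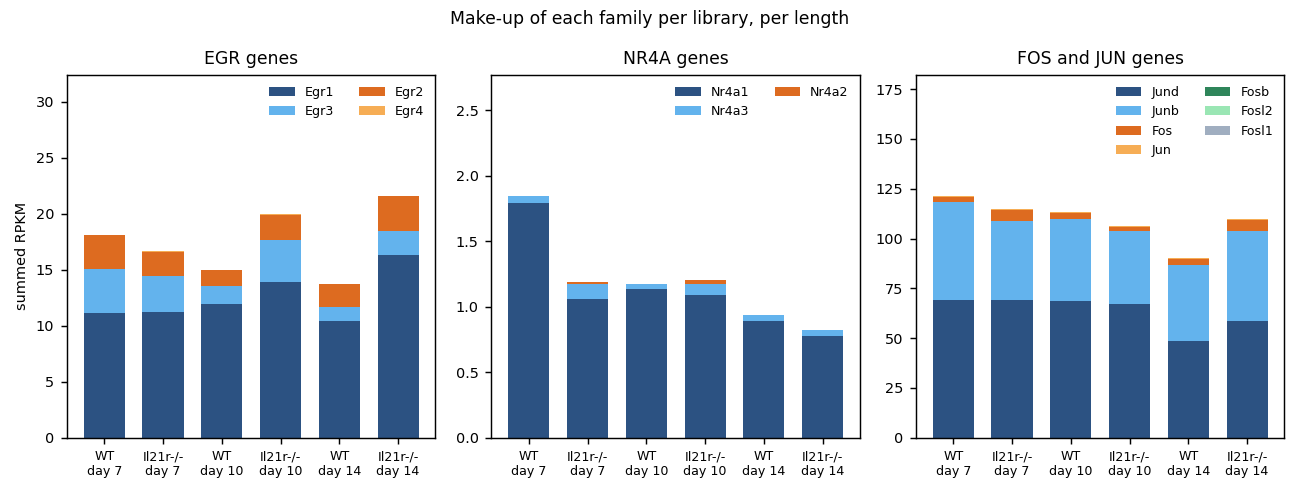
Stacked bars of RPKM per gene in each of the 6 libraries, for the EGR, NR4A and FOS plus JUN genes, the y axis being the summed RPKM of the family. *Egr1*, *Nr4a1* and *Jund* with *Junb* made up most of each bar in both genotypes.

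*Egr1*, the EGR gene most used as a sign of antigen receptor signaling, stood at 34.3, 36.8 and 32.0 CPM in WT on days 7, 10 and 14. In *Il21r*-/- it stood at 34.5, 42.6 and 50.2 CPM. The genotypes were level on day 7 and 1.57-fold apart on day 14, where the highest *Egr1* library was *Il21r*-/-. Over 3 days the log2 fold change (*Il21r*-/- minus WT) was 0.29 (SE 0.14, 95% interval -0.02 to 0.60), with an edgeR adjusted p of 0.27.
*Egr2*, which restrains lymphocyte activation in T cells and drives myelination in Schwann cells, stood at 8.87, 4.39 and 6.04 CPM in WT and at 6.50, 6.59 and 9.19 CPM in *Il21r*-/-. WT was higher on day 7 and *Il21r*-/- on days 10 and 14, and the groups overlapped. The log2 fold change was 0.20 (SE 0.27, 95% interval -0.41 to 0.82, adjusted p = 0.72).
*Egr3*, a partner of *Egr2* with overlapping targets, stood at 5.53, 2.20 and 1.78 CPM in WT and at 4.54, 5.37 and 3.01 CPM in *Il21r*-/-. WT was lower on days 10 and 14 than on day 7, and *Il21r*-/- stood near its day 7 level on day 10. The log2 fold change was 0.54 (SE 0.29, 95% interval -0.11 to 1.19, adjusted p = 0.32).

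*Nr4a1*, which encodes the nuclear receptor NUR77, stood at 4.43, 2.80 and 2.20 CPM in WT and at 2.62, 2.71 and 1.93 CPM in *Il21r*-/-. WT on day 7 was the highest library, and the other 5 lay between 1.93 and 2.80 CPM. *Nr4a1* was the 1 tested member with *Il21r*-/- below WT on all 3 days, and *Egr1* the 1 above it on all 3. Among all genes tested, 25.4% lay below and 27.9% above on all 3 days. The *Nr4a1* log2 fold change over 3 days was -0.35 (SE 0.22, 95% interval -0.84 to 0.14, adjusted p = 0.40).
*Nr4a3*, the related receptor NOR1, was counted 3, 2 and 2 times in WT and 5, 4 and 2 times in *Il21r*-/-. Pooled over days, 11 reads against 7 gave a ratio of 1.55, with an exact 95% counting interval of 0.550 to 4.73, so no difference was detectable at this depth.

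*Fos*, the short-lived partner of JUN proteins, stood at 5.90, 6.34 and 6.42 CPM in WT on days 7, 10 and 14 and at 12.0, 4.23 and 11.2 CPM in *Il21r*-/-. The WT libraries lay within 1.09-fold of each other, and the *Il21r*-/- libraries spanned 2.85-fold, with days 7 and 14 above every WT library and day 10 below. The log2 fold change over 3 days was 0.56 (SE 0.34, 95% interval -0.22 to 1.33, adjusted p = 0.39). Counting error was small beside this spread: the pooled ratio of 1.45 had an exact 95% counting interval of 1.29 to 1.64. Without the *Il21r*-/- library of day 10 the log2 fold change was 0.90 (SE 0.16, adjusted p = 0.0013), so the absence of a *Fos* call turned on that library, in a fit where 19.7% of all genes passed. With that library left out of the spread estimate, the day 7 difference of 1.03 also passed (adjusted p = 0.014), as did 2.0% of all genes (220).
*Fosb*, a FOS relative best known from neurons, was counted 11, 13 and 7 times in WT and 25, 9 and 16 times in *Il21r*-/-. It had the same order of libraries as *Fos* in *Il21r*-/-, high on days 7 and 14 and low on day 10. In centred log2 CPM its root mean square difference from *Fos* was 0.287, which placed it 17th when set among the tested genes. When all genes with any count were tested, the *Fosb* log2 fold change was 0.68 (SE 0.45, adjusted p = 0.51).
The summed CPM of 7 erythroid markers was 18.9, 4.99 and 34.1 in *Il21r*-/- and 13.1, 10.2 and 19.1 in WT on days 7, 10 and 14, high and low in the same *Il21r*-/- libraries as *Fos*. The hemoglobin genes *Hba-a1*, *Hba-a2* and *Hbb-bs* had root mean square differences from *Fos* of 0.552 to 0.590. Their ranks were 4553 to 5892 among the tested genes. This measure also grows with the size of the swings between libraries. From lowest to highest library, these 3 genes spanned 6.60-fold, 8.79-fold and 6.92-fold, against 2.85-fold for *Fos* and 3.33-fold for *Fosb*. The summed 10 myeloid markers stood at 9.47, 2.74 and 7.75 CPM in *Il21r*-/- and at 7.18, 2.64 and 6.88 CPM in WT. They too were high and low in the same *Il21r*-/- libraries as *Fos*, and WT was also lowest on day 10. *Mpo* and *Elane* stood at 0. Of 3 myeloid markers tested, 0 passed over 3 days by edgeR's test and 1 rose with day as a block. The part of erythroid or myeloid RNA in the *Fos* values was not tested.

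*Jun*, the founding AP-1 gene, stood at 1.36, 1.42 and 0.936 CPM in WT and at 0.742, 0.724 and 1.08 CPM in *Il21r*-/-. *Il21r*-/- was lower on days 7 and 10 and higher on day 14. The log2 fold change was -0.55 (SE 0.31, 95% interval -1.24 to 0.15, adjusted p = 0.35).
*Junb* stood at 89.9, 75.2 and 70.7 CPM in WT and at 72.5, 67.5 and 83.3 CPM in *Il21r*-/-, a log2 fold change of -0.08 (SE 0.13, adjusted p = 0.79). The 95% interval of the fold was 0.775 to 1.16.
*Jund* stood at 199, 198 and 139 CPM in WT and at 199, 193 and 169 CPM in *Il21r*-/-, a log2 fold change of 0.08 (SE 0.11, adjusted p = 0.74) with a 95% interval of the fold of 0.890 to 1.25. The genotypes lay close together on days 7 and 10, and day 14 was the lowest day of each. The intervals of these abundant JUN genes were narrow, whereas those of *Egr3*, *Fos* and *Jun* reached folds of 2 or more in 1 direction.

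**Figure D2:**
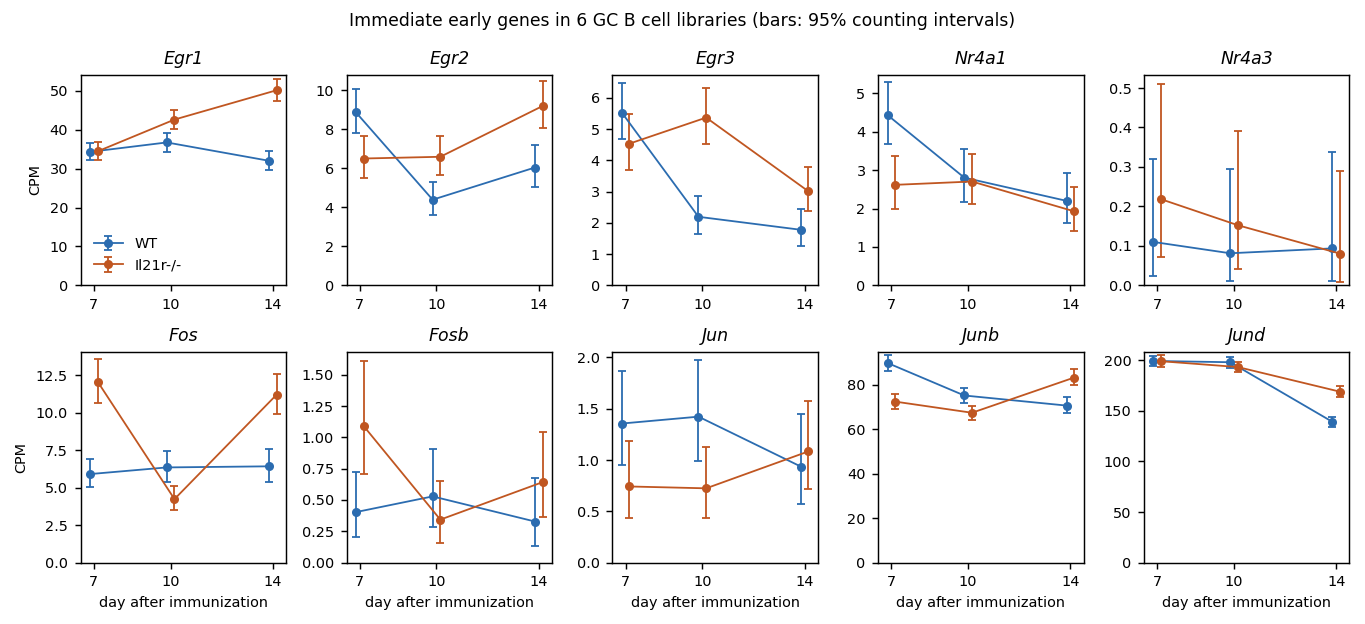
CPM (y axis) of each of the 10 members against the day after immunization (x axis), with 1 library per point and exact 95% counting intervals as bars. *Egr1* was level on day 7 and higher in *Il21r*-/- on day 14, *Fos* and *Fosb* were high in *Il21r*-/- on days 7 and 14, and *Jund* was lowest on day 14 in both genotypes.

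Between *Il21r*-/- and WT, no member passed the threshold over the 3 days (0 of 8). Of all 11005 genes tested, 5.92% passed it by edgeR's quasi-likelihood test, so 0 of 8 is near the general share. None of the 8 reached an unadjusted p of 0.05 in that test, and DESeq2's Wald test called 0. With day as a block, 0 members again passed, although 22.9% of all genes then did. *Egr1* came nearest (log2 fold change 0.29, SE 0.11, unadjusted p = 0.014 and adjusted p = 0.057 by edgeR with the block). None of the 8 had libraries of the genotypes that did not overlap, a pattern seen in 18.4% of all genes tested. In a bulk library, fewer cells of a type and less RNA per cell cannot be told apart.

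**Figure D3:**
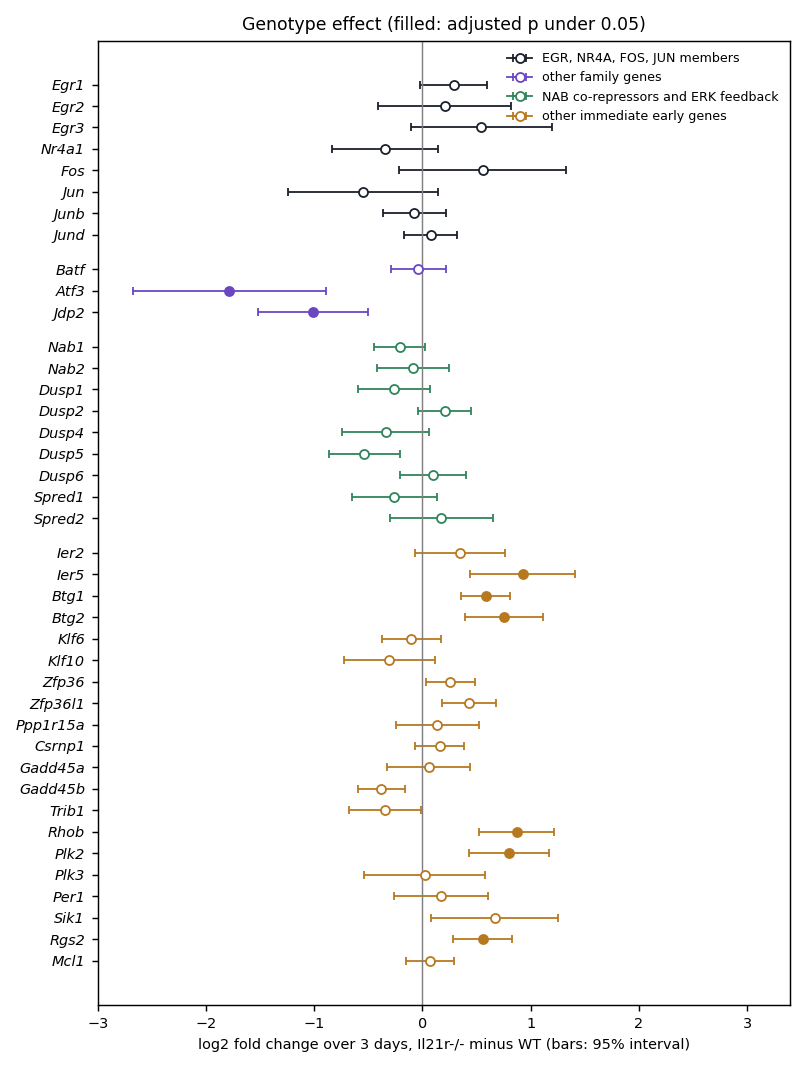
Log2 fold change over 3 days, *Il21r*-/- minus WT (x axis), with 95% intervals, for the tested genes of 4 groups (y axis). The intervals of the 8 members include 0, while *Atf3*, *Jdp2* and 6 other immediate early genes are filled as past an adjusted p of 0.05.

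On single days, edgeR's likelihood ratio test called 0 of 8 members on day 7 (1.07% of all genes passed), 0 on day 10 (3.10%) and 0 on day 14 (3.28%), and DESeq2 called 0 on each. The members reaching an unadjusted p of 0.05 numbered 0, 1 and 1. On day 10 this was *Egr3*, with a log2 fold change of 1.29 (SE 0.53, adjusted p = 0.24). On day 14 it was *Egr1*, at 0.65 (SE 0.27, adjusted p = 0.24).
The signs of the estimates were not the same on each day, with 1 library per genotype on a day. On day 7, 2 of 8 members had a log2 fold change above 0 (median -0.30), on day 10 it was 3 of 8 (median -0.04), and on day 14 it was 7 of 8 (median 0.44), with *Nr4a1* (-0.19) as the exception. Across all genes tested, 51.5% lay above 0 on day 14 and the median was 0.01. The members of a day were read from the same pair of libraries, so they are not independent of each other. Day 7 and day 14 differed in sign for 5 of 8 members and for 29.2% of all genes. *Egr2* went from -0.45 to 0.61, *Egr3* from -0.29 to 0.76, *Jun* from -0.87 to 0.21 and *Junb* from -0.31 to 0.24. *Jund*, nearly level between genotypes on day 7, went from -0.002 to 0.28.
A change of the genotype effect with day was not detected: the test of the difference in linear day trend between genotypes called 0 members and 0 of all genes (0.00%). No member had an unadjusted p under 0.05 there, and 118 of all genes did. With 1 library per genotype on a day, these 0 calls do not show that the genotype effect was the same on each day. The *Egr1* trend differed by 0.09 on the log2 scale per day (SE 0.04, 95% interval -0.01 to 0.19, adjusted p = 1).

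**Figure D4:**
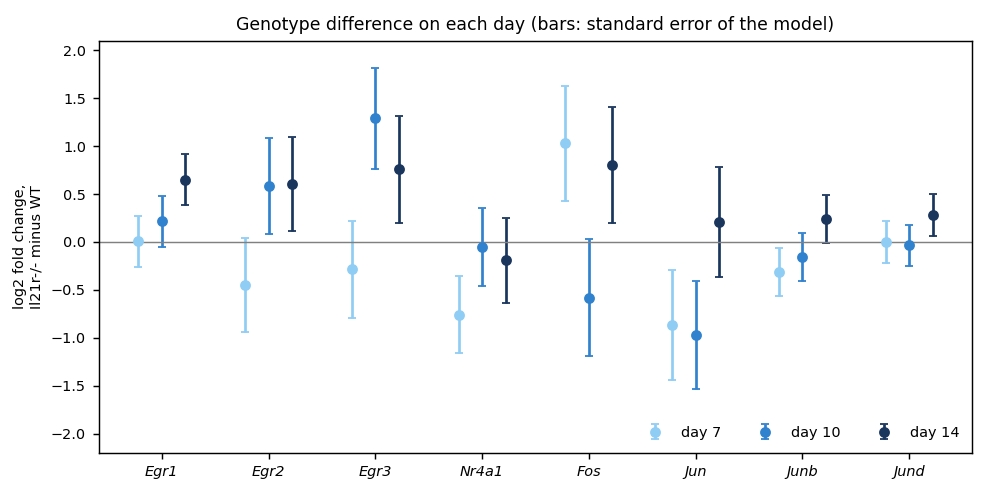
Log2 fold change (y axis), *Il21r*-/- minus WT, of the 8 tested members (x axis) on days 7, 10 and 14, with the standard error of the fitted model as bars. On day 14, 7 of the 8 points lie above 0, against 2 on day 7.

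Across both genotypes, no member passed the test for a linear effect of day (0 of 8, against 4.43% of all genes, and 0 by DESeq2), while 3 reached an unadjusted p of 0.05. These were *Egr3*, with a log2 change of -0.16 per day (SE 0.05, adjusted p = 0.10), *Nr4a1*, with -0.11 (SE 0.04, adjusted p = 0.14), and *Jund*, with -0.06 (SE 0.02, adjusted p = 0.13). All 3 estimates were downward. *Egr3* passed when all genes with any count were tested (adjusted p = 0.046), as did 5.14% of those genes. Without the *Il21r*-/- library of day 10, *Egr3* (adjusted p = 0.025) and *Jund* (adjusted p = 0.029) passed, 2 of 8 members in a fit where 19.8% of all genes passed.

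Of 9 other genes of these families and their leucine zipper relatives, 3 passed the limit on low expression, and 2 of those 3 fell in *Il21r*-/- (1.40% of all genes did). *Atf3*, a stress-inducible repressor that pairs with JUN proteins, stood at 0.916, 1.26 and 2.25 CPM in WT and at 0.480, 0.457 and 0.281 CPM in *Il21r*-/-. These were low counts, 25, 31 and 48 reads in WT and 11, 12 and 7 in *Il21r*-/-. The filter of at least 10 reads per library left *Atf3* out. Every WT library lay above every *Il21r*-/- library, and the log2 fold change was -1.79 (SE 0.39, adjusted p = 0.033). On day 14 it was -2.98 (SE 0.74, adjusted p = 0.0013), a call that DESeq2's Wald test did not make (adjusted p = 0.40).
*Jdp2*, a JUN dimerization partner that represses AP-1 targets, stood at 5.46, 10.9 and 13.9 CPM in WT and at 3.97, 5.22 and 5.06 CPM in *Il21r*-/-. Its groups did not overlap either, and the log2 fold change was -1.01 (SE 0.22, adjusted p = 0.034). The day 14 difference was -1.46 (SE 0.41, adjusted p = 0.019, and 0.10 by DESeq2). Both genes lost their call over 3 days without the WT library of day 10, the WT library of day 14 or the *Il21r*-/- library of day 14, and *Jdp2* also without the *Il21r*-/- library of day 7. The adjusted p then reached at most 0.21 for *Atf3* and 0.23 for *Jdp2*. With the block, the adjusted p was 0.00070 for *Atf3* and 7.2e-05 for *Jdp2*.
*Batf*, which B cells need for class switching, stood at 25.3, 30.4 and 32.9 CPM in WT and at 26.5, 26.3 and 33.6 CPM in *Il21r*-/-, a log2 fold change of -0.04 (SE 0.11, adjusted p = 0.88). *Egr4* had 0 to 3 reads in a library, *Nr4a2* 0 to 3, *Fosl1* 0 to 1 and *Fosl2* 0 to 6. *Batf2* and *Batf3* had 0 reads.

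Among the genes that restrain EGR proteins or ERK, 9 of 11 were tested, and 0 of 9 passed over the 3 days by edgeR's test (1 at an unadjusted p of 0.05). *Nab1* (-0.21 on the log2 scale) and *Nab2* (-0.09), the co-repressors that bind EGR proteins, did not pass. Neither did the ERK and MAP kinase phosphatases *Dusp1* (-0.26), *Dusp2* (0.21), *Dusp4* (-0.34), *Dusp5* (-0.54) and *Dusp6* (0.10), nor the RAS pathway inhibitors *Spred1* (-0.26) and *Spred2* (0.17).
*Dusp5*, an ERK phosphatase of the nucleus and itself an ERK target, stood at 20.2, 13.9 and 8.52 CPM in WT and at 12.0, 9.14 and 7.31 CPM in *Il21r*-/-. It was lower in *Il21r*-/- on each of the 3 days (SE 0.15, adjusted p = 0.070), and it passed with the block (adjusted p = 0.0030), with DESeq2 (adjusted p = 0.043) and when all genes with any count were tested (adjusted p = 0.042). *Spry2*, another RAS pathway inhibitor, was counted 8, 6 and 12 times in WT and 1, 0 and 0 times in *Il21r*-/-, below the limit for testing. *Spry1* had 0 to 5 reads in a library.
With day, *Dusp4* (-0.25 per day on the log2 scale, adjusted p = 0.0078), *Dusp5* (-0.14, adjusted p = 0.023) and *Spred1* (-0.14, adjusted p = 0.043) fell and *Nab2* rose (0.12, adjusted p = 0.033). That is 3 of 9 falling, where 3.36% of all genes fell, and 1 of 9 rising, where 1.07% rose.

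The factors and kinases that act upstream of the members showed no call over 3 days by edgeR's test (0 of 15 SRF, ELK, MRTF, CREB, MEF2 and NFAT genes and 0 of 19 RAS, ERK, JNK and p38 pathway genes, with 2 of each at an unadjusted p of 0.05). With the block, 2 of the 15 and 2 of the 19 passed, a smaller share of each list than the 22.9% of all genes. *Nfatc1*, a calcium-dependent factor downstream of the antigen receptor, stood at 140, 130 and 102 CPM in WT and at 158, 207 and 146 CPM in *Il21r*-/- (log2 fold change 0.45, SE 0.09, adjusted p = 0.00039 with the block), and *Mef2b* was lower (-0.34, SE 0.08, adjusted p = 0.0019 with the block). *Map2k1*, which encodes the ERK kinase MEK1, was higher (0.26, SE 0.08, adjusted p = 0.015 with the block) and *Hras* lower (-0.31, SE 0.09, adjusted p = 0.0090 with the block).

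Other immediate early genes included several that passed the test. Like the other gene lists here, this list was chosen with earlier results of these data known. Its shares are therefore a description of the listed genes and no test of immediate early genes as a class. Of 24 listed, 20 were tested, and 6 of 20 rose in *Il21r*-/- over the 3 days, where 4.52% of all genes did. None fell (1.40% of all genes did). The median log2 fold change of the 20 was 0.21, against 0.14 for the 8 members and 0.01 for all genes.
*Btg1*, an anti-proliferative gene of quiescent lymphocytes, stood at 423, 340 and 288 CPM in WT and at 607, 494 and 467 CPM in *Il21r*-/-. Each *Il21r*-/- library was above each WT library (log2 fold change 0.59, SE 0.10, adjusted p = 0.012). Its relative *Btg2* stood at 223, 126 and 94.8 CPM in WT and at 274, 234 and 205 CPM in *Il21r*-/- (0.76, SE 0.16, adjusted p = 0.028), with WT on day 7 above *Il21r*-/- on day 14.
*Rhob*, a small GTPase, stood at 7.18, 6.87 and 5.29 CPM in WT and at 12.5, 10.7 and 11.9 CPM in *Il21r*-/- (0.87, SE 0.15, adjusted p = 0.013). The kinase gene *Plk2* (0.80, SE 0.16, adjusted p = 0.025) and *Rgs2*, which encodes an inhibitor of G protein signaling (0.56, SE 0.12, adjusted p = 0.031), also rose without overlap. *Ier5*, which takes part in the heat shock response, stood at 106, 61.6 and 47.2 CPM in WT and at 128, 122 and 137 CPM in *Il21r*-/- (0.92, SE 0.21, adjusted p = 0.040), and this call was lost with the block (adjusted p = 0.24). Each of the 6 lost its call in at least 2 of the 6 fits that left out 1 library, among them those without either library of day 14 (adjusted p of the 6 genes between 0.073 and 0.30).
With the block, 8 of 20 rose (13.6% of all genes) and 1 fell (9.33%). *Zfp36l1* (adjusted p = 0.000405), *Zfp36* (0.027) and *Sik1* (0.013) joined the rising genes under the block, and *Gadd45b*, which is induced by NF-kB, fell by 0.38 on the log2 scale (adjusted p = 0.00086). These 4 genes go beyond the 6 of lowest p over 3 days and were named after their values were seen.

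**Figure D5:**
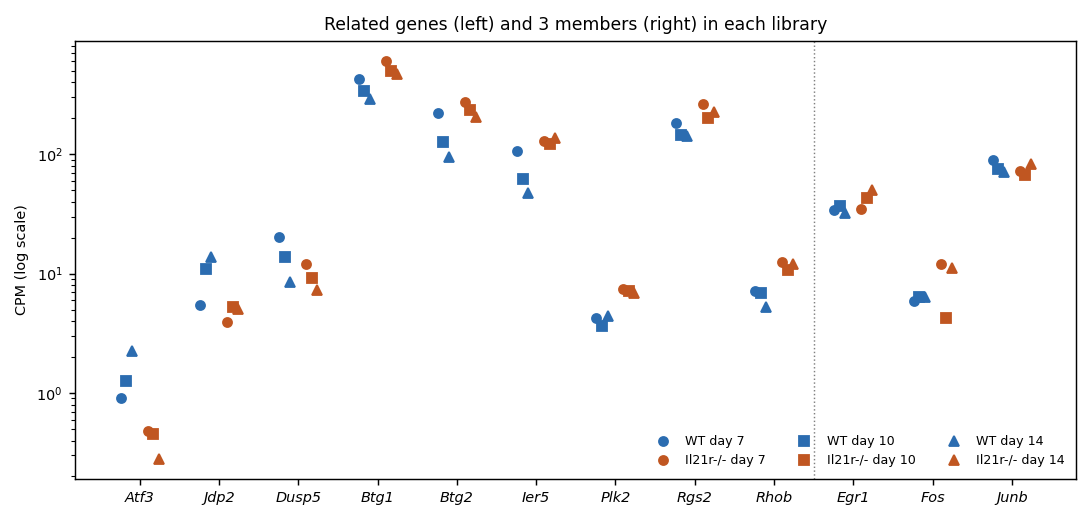
CPM on a log axis (y axis) in each of the 6 libraries for 9 related genes and, right of the dotted line, for *Egr1*, *Fos* and *Junb* (x axis). Color gives the genotype and shape the day. *Atf3* and *Jdp2* lie lower in *Il21r*-/-, *Btg1*, *Ier5*, *Plk2*, *Rgs2* and *Rhob* lie higher without overlap, and the 3 members overlap between genotypes.

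Genes of the light zone differed with the genotype in the same libraries. Of 12 light zone genes, 6 rose in *Il21r*-/- over 3 days (*Cd83*, *Cd69*, *Fcer2a*, *Bcl2a1b*, *Il4i1* and *Cd40*), where 4.52% of all genes did, and the summed level of the 12 lay at 1374 to 1879 CPM in WT and at 2705 to 2888 CPM in *Il21r*-/-. Of 10 dark zone genes, 0 passed by edgeR's test and 5 had an unadjusted p under 0.05, and the 10 summed to 2890 to 3342 CPM in WT and to 2596 to 2694 CPM in *Il21r*-/-. Of 8 tested heat shock genes, which rise with cell handling, 2 passed as lower in *Il21r*-/-. These were *Hsp90aa1* (log2 fold change -0.59, SE 0.10, edgeR adjusted p = 0.011) and *Hsph1* (-0.62, SE 0.11, adjusted p = 0.012). The median of the 8 was -0.25, and 2 of the 8 lay above 0. The inducible *Hspa1b* stood at 1.98, 1.30 and 2.62 CPM in WT on days 7, 10 and 14. In *Il21r*-/- it stood at 1.35, 1.49 and 4.70 CPM, highest on day 14. Of 8 markers of B cells outside the GC, 5 rose in *Il21r*-/- over 3 days and 0 fell, with a median log2 fold change of 1.16. They summed to 312 to 748 CPM in WT and to 732 to 1191 CPM in *Il21r*-/-. *Fcer2a* was in this list as well as in the light zone list. The part of zone composition, of B cells outside the GC or of handling in the values of the immediate early genes was not tested.

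The mean profile of the 8 tested members over the 6 libraries was flat, spanning 0.57 on the log2 scale from its highest library (WT on day 7) to its lowest (WT on day 14). Single members spanned from 0.41 (*Junb*) to 1.62 (*Egr3*). The 5 other genes with the smallest root mean square difference from the mean profile were *Fut11* (0.0444 on the log2 scale), *Fth1* (0.0522), *Leng9* (0.0588), *Alg1* (0.0593) and *Gabarap* (0.0669), each over 6 libraries and given as a description.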

How the data were processed

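Per the study's methods, the authors mapped 100-base single-end reads to mm10 using Rsubread, and featureCounts with the inbuilt RefSeq annotation gave the deposited values, raw read counts for every gene. The labels also name CASAVA 1.8.2. Strand and multi-mapping settings were not given in the sources used here, so reads of overlapping or antisense genes cannot be told apart. The deposited series table and the 6 single-library files held identical counts. Symbols for 25275 identifiers came from a RefSeq table of GRCm38.p6 and for 18 from GENCODE, and 1886 had none and held 1.57 to 2.24% of a library's reads.

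The software was R 4.3.3 with edgeR 4.0.16. The filter was built after the study's methods: average log2 CPM of at least 0, without *Xist*, Ig variable and Y-linked genes. It left 11005 genes, a number that differs from the study's, and these were scaled by TMM. CPM was taken over the effective library size of these genes, and RPKM also per kilobase of exon. Dispersions for the effects over 3 days, of day and on single days came from a robust fit of genotype plus linear day. The common biological coefficient of variation there was 13.1%. The difference in trend and the fit with day as a block used robust dispersions of their own designs. Quasi-likelihood tests gave the genotype effect over 3 days, the linear effect of day and the difference in trend. The genotype effect on each day came from likelihood ratio tests in a model with 1 mean for every day. P-values were adjusted by Benjamini-Hochberg over all tested genes, with a threshold of 0.05. The intervals of quasi-likelihood folds follow from the F statistic, and the standard errors of day-wise values from the fitted model. Counting intervals describe sampling of reads alone, because molecules carried no identifiers. The fits were tested on simulated data.

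The labels give the day, which pairs a WT and an *Il21r*-/- library. Deviations from the genotype means correlated across genes within each pair, with r = 0.632 (day 7), 0.392 (day 10) and 0.633 (day 14). The alternatives were day as a block, size factors of DESeq2, its Wald test (DESeq2 1.42.0), a filter of at least 10 reads per library, no filter beyond any count, the linear day term kept in the day-wise tests, and fits that each omitted 1 library. The members and the gene lists were chosen with earlier results of these data known. Genes named were the 10 members, all genes of the family and feedback lists, from other lists those past the threshold over 3 days or with the block (at most 6 of lowest p a list), needed markers, *Il21r* and the 5 genes nearest to the members' mean profile.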

Additional observations from a re-analysis of the deposited data

How the results depend on the processing

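No member passed the threshold over 3 days with size factors of DESeq2, with at least 10 counts in each library, with all genes of any count, DESeq2's Wald test or the replicate block. Leaving out 1 library gave 0 to 1 members over 3 days and on day 7 (*Fos*, without *Il21r*-/- day 10), 0 on days 10 and 14 and for the trend difference, and 0 to 2 for the linear effect of day (*Egr3* and *Jund*, without *Il21r*-/- day 10). Testing all genes with any count gave 1 member falling with day (*Egr3*).

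Of all genes, 651 passed over 3 days, against 991 when all genes with any count were tested, 2519 with the replicate block, which pairs libraries by day, and 132 to 2165 when 1 library was left out. The share of calls higher in *Il21r*-/- was 76.3%, against 66.6% with DESeq2's Wald test, 59.2% with the block and 55.8% without *Il21r*-/- day 10. On day 7, 118 genes passed, against 67 with DESeq2's Wald test and 104 to 220 in the leave-one-out fits. On day 10, 341 passed, against 213 with that test, 546 with the linear day term kept and 267 to 643. On day 14, 361 passed, against 236 with that test and 288 to 704. For the linear effect of day, 488 passed, against 869 with all genes with any count, 870 with DESeq2's Wald test and 5 to 2177, the lowest without WT day 14 and the highest without *Il21r*-/- day 10. For the trend difference, 0 passed, and 0 to 11 in the leave-one-out fits.

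Near 0, signs changed in leave-one-out fits over 3 days: *Egr2* ranged from -0.070 to 0.65, *Junb* from -0.25 to 0.055, *Jund* from -0.036 to 0.15, *Batf* from -0.087 to 0.012, *Nab2* from -0.25 to 0.0039 and *Dusp6* from -0.055 to 0.20. The day 14 value of *Batf* was -0.0026 with the linear day term kept. The cause was not tested. *Egr1* (0.11 to 0.43), *Egr3* (0.35 to 0.96), *Fos* (0.06 to 0.90), *Nr4a1* (-0.43 to -0.17) and *Jun* (-0.86 to -0.41) kept their direction over 3 days in the 11 alternatives. With 1 library per genotype and day, a day-wise difference has no replicate of its own, and low counts limit *Nr4a3*, *Fosb*, *Jun* and *Atf3*.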
